A study of Homo sapiens with 4 samples.

Results

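Interferon-stimulated genes (ISGs) were examined in RNA sequencing of 4 cultures labelled Kasumi-1, an acute myeloid leukemia (AML) line. The 55 listed genes were looked up by symbol in the deposited table of 18567 genes, and a gene was tested if it reached at least 1 TPM (transcripts scaled to their length and to a fixed total per sample) in at least 2 of the 4 samples. A row was matched for 45 of the 55 genes, 43 of them passed this filter, and 16817 genes were tested in all. The 10 genes IFI27, IFI44, IFI44L, IFITM3, OAS2, XAF1, EPSTI1, GBP1, GBP4 and LGALS3BP had no matched row and were not analysed here. OASL and SAMD9 lay below the filter, and IFIT5 passed it only through the sh-ANP32B samples.

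The 2 NC samples were labelled as untreated Kasumi-1 cells with no shRNA, and the 2 sh-ANP32B samples as Kasumi-1 cells with ANP32B knockdown. The methods of the study name a control hairpin called sh-NC and puromycin selection of lentivirally infected cells, so whether the NC samples carried a hairpin is unsettled. If they carried none, the infection and the selection cannot be told apart from the knockdown, and this bears on every ISG value given here. The hairpin used in the sh-ANP32B samples was not given, and no source used here says that the 2 samples of a group were separate infections, so the p-values measure only the spread between these samples.

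ANP32B, the targeted gene, had 383.8 and 392 TPM in NC, against 51.8 and 41.2 in sh-ANP32B, or 12% of the NC mean, which goes with the labels. The line was less clear. Of the markers chosen for Kasumi-1, RUNX1T1, part of the fusion gene that defines the line, ranged from 15.6 to 31.2 TPM and CD33 from 58.5 to 70.1 TPM. KIT, an abundant receptor of Kasumi-1 cells, reached only 1.55 to 3.41 TPM, and CD34 and MPO had no matched row. HOXA9 and MEIS1, homeobox genes usually low in AML with this fusion and looked up after the other values were seen, ranged from 150.2 to 194.5 TPM and from 49.9 to 64.3 TPM, and POU4F1, usually high with this fusion, from 16.1 to 22.9 TPM. The cells are therefore called cultures labelled Kasumi-1. Library depth is unknown, because TPM keeps none. Between the replicates the median absolute log2 difference of the 43 ISGs was 0.11 for NC and 0.29 for sh-ANP32B, against 0.15 and 0.30 for all genes tested.

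Interferons are secreted proteins that bind cell-surface receptors and activate the kinases JAK1, JAK2 and TYK2. Type I interferons cause STAT2 and IRF9 to join a complex named ISGF3, which binds the interferon-stimulated response element (ISRE) of its target genes. The targets include sensors of viral RNA, enzymes that degrade RNA or stop its translation, membrane proteins that hold back virus particles, and the ubiquitin-like protein ISG15. Many of them are also expressed at a low basal level without added interferon, and blood cells of the myeloid lineage are among those that respond.

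Knockdown of ANP32B was accompanied by higher levels of 5 of the 43 tested ISGs, namely the ISGF3 subunits STAT2 and IRF9, the RNA sensor DHX58, the GTPase GBP2 and the mitochondrial protein IFI6, and no ISG passed the test as lower. These 5 genes passed limma with an adjusted p under 0.05 over all genes, which is 11.6% of the tested ISGs, where 2.14% of all genes tested were higher at this threshold and 1.18% were lower. The levels of these 5 genes were between 1.78 and 3.85 times the NC mean. At an unadjusted p under 0.05 there were 16 ISGs in either direction (37.2%, against 23.8% of all genes). The median log2 fold change was 0.17 over the 43 ISGs and 0.08 over all genes. Of the ISGs, 29 lay above 0 (67.4%, against 57.9% of all genes) and 14 below. Over all 45 ISGs with a row and without a filter the median was 0.21. The calls therefore covered only part of the ISGs, with several textbook ISGs such as MX1, ISG15 and RSAD2 outside them. Whether the called and uncalled ISGs differ from each other was not tested. The calls depended on the samples used. Fewer ISGs were called without either NC replicate. Without either sh-ANP32B replicate more were called, some of them as lower. The calls over all genes moved in the same way. With 1 sample left out the log2 fold changes lay from 0.77 to 0.88 for STAT2 and from 1.04 to 1.15 for IRF9. They lay from 1.22 to 1.49 for DHX58, from 1.29 to 1.91 for GBP2 and from 0.74 to 1.12 for IFI6. Without the abundance trend 0 ISGs passed, against 15 at an unadjusted p under 0.05.

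**Figure D1:**
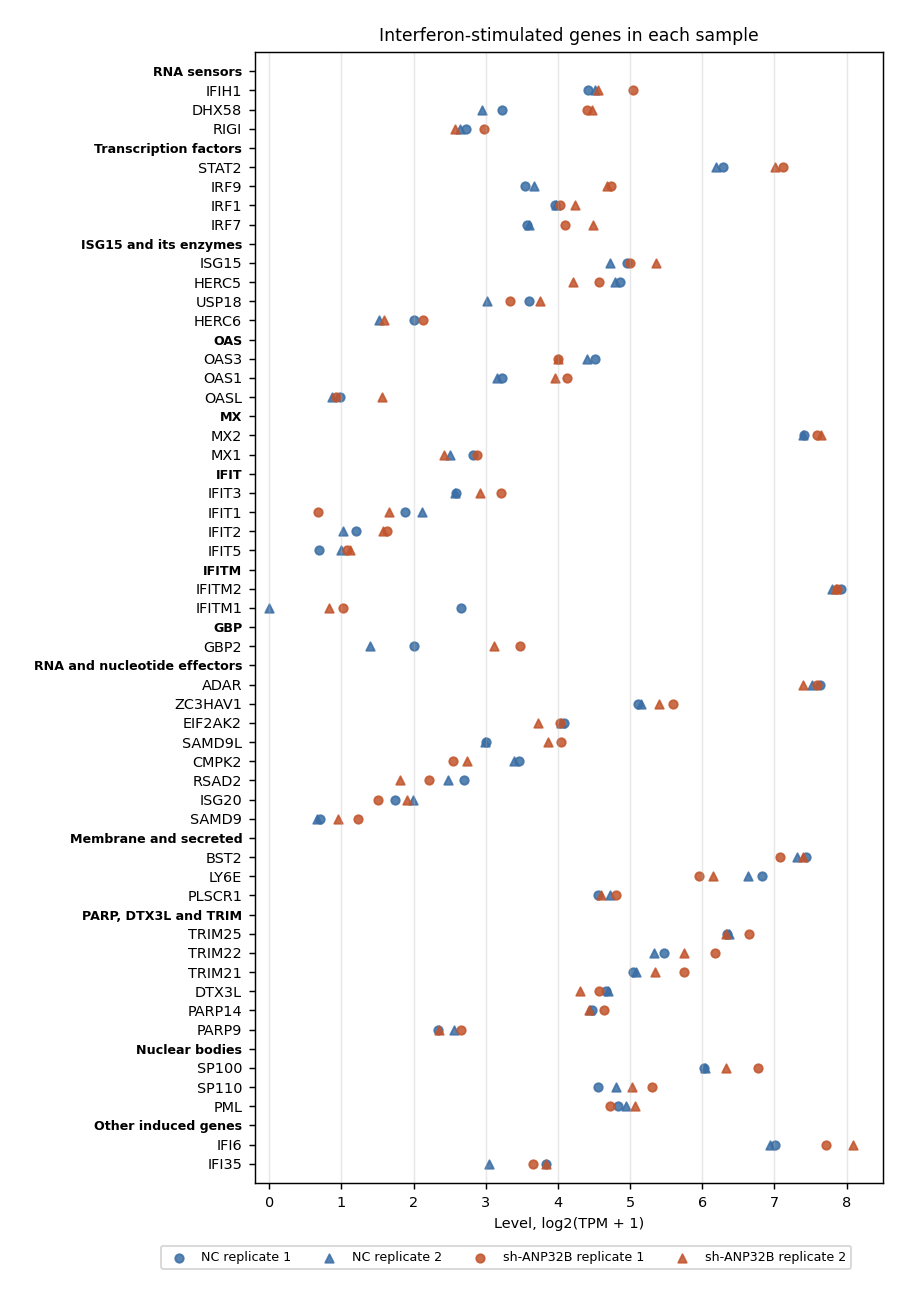
Level of each of the 45 ISGs with a matched row in each sample, as log2(TPM + 1) on the horizontal axis, grouped by role. Circles and triangles are replicates 1 and 2, in blue for NC and in orange for sh-ANP32B. The orange marks of STAT2, IRF9, DHX58, GBP2 and IFI6 all lie to the right of the blue ones, whereas those of LY6E, CMPK2 and OAS3 lie to the left.

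The promoters of 7 ISGs are given first, because the ISRE is the best known element of ISG promoters and the fold changes of these genes lay on both sides of 0, although only STAT2, IRF9 and IFI6 passed the test. The sequences are from RefSeq (GRCh38.p14, the same build as hg38), 5′ to 3′ on the strand of the gene, and cover the 200 bases before the start site. Capitals mark the core letters of the ISRE, GAAA, any 2 bases and GAAA, on either strand (a match on the other strand reads TTTC, any 2 bases and TTTC). STAT2 lies at chr12:56360108-56360307 on the minus strand, IRF9 at chr14:24161065-24161264 on the plus strand, IFI6 at chr1:27672193-27672392 on the minus strand and OAS1 at chr12:112906762-112906961 on the plus strand, and these 4 genes were higher in both sh-ANP32B samples.
STAT2: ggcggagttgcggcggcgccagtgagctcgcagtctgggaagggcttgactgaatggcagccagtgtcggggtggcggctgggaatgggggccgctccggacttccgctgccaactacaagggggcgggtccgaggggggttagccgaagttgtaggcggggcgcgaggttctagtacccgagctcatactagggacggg
IRF9: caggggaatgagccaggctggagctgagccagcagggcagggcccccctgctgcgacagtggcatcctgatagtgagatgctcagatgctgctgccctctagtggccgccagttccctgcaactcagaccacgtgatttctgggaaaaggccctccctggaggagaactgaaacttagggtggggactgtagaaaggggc
IFI6: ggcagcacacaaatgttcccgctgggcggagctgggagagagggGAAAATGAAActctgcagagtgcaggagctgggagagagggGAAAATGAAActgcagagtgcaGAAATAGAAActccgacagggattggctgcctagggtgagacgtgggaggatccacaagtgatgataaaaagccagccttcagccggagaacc
OAS1: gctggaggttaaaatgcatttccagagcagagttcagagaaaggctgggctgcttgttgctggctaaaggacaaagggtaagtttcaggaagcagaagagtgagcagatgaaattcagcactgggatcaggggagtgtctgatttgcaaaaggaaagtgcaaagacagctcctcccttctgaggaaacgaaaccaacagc

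IFIT1 lies at chr10:89392423-89392622, RSAD2 at chr2:6877577-6877776 and OAS3 at chr12:112938274-112938473, all on the plus strand. They are among the 8 ISGs with both sh-ANP32B values below both NC values. CMPK2, another of these, has a promoter entry without the letters and is not printed. IFIT3, ISG15, IFIH1 and TRIM21 hold the letters, were higher in both sh-ANP32B samples and are not printed either. The printed promoters therefore do not represent all tested ISGs. RSAD2 has 2 start sites in the table, and the one with more matches is shown.
IFIT1: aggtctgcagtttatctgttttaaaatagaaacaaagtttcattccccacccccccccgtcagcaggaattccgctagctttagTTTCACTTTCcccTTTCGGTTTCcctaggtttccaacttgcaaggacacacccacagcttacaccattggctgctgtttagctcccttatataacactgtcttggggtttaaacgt
RSAD2: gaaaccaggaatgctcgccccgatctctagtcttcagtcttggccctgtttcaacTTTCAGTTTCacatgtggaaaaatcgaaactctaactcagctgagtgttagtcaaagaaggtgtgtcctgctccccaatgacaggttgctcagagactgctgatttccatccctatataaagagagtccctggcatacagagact
OAS3: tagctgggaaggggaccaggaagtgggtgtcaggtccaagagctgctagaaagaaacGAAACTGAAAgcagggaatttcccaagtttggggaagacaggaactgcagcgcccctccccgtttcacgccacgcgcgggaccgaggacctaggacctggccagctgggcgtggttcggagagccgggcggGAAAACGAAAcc

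The 200 bases shown held 3 matches for IFI6, 2 each for IFIT1 and OAS3, and 1 for RSAD2, whereas STAT2, IRF9 and OAS1 had none of these exact letters. Near its start site OAS1 holds GAAA, 1 base and GAAA, a closer spacing that the search did not count. It is therefore placed below among the ISGs without the letters, and a gene so placed can still hold a related form. Over the full window of 250 bases before to 50 after the start site, 28 of the 43 ISGs with a promoter entry held the letters (65.1%), against 4.38% of all 27305 genes in the table. A gene with several start sites was counted once, if any window matched. A second element, TTCNNNGAA, which is the core of the gamma-activated site of genes induced by interferon gamma and was searched after the fold changes had been seen, was present in 13 of the 43 ISGs (30.2%) and in 9.38% of all genes, IRF9 and OAS1 among them. The matches are descriptions of letters and not measured binding sites.

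Among the tested ISGs the ISRE letters were more often found in genes with low fold changes. Of the 10 ISGs with the highest fold changes 6 had a promoter entry and 1 of these, IFI6, held the letters. Of the 10 with the lowest fold changes 9 had an entry and 8 held them. The median log2 fold change was -0.01 for the 19 tested ISGs with the letters, 0.33 for the 14 in which they were searched and not found, and 0.37 for the 10 without an entry, among them GBP2 and DHX58. Over all tested genes with an entry the median was 0.07 for 392 genes with the letters and 0.06 for 9567 without. This split of the ISGs was noticed in the data and was not tested.

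**Figure D2:**
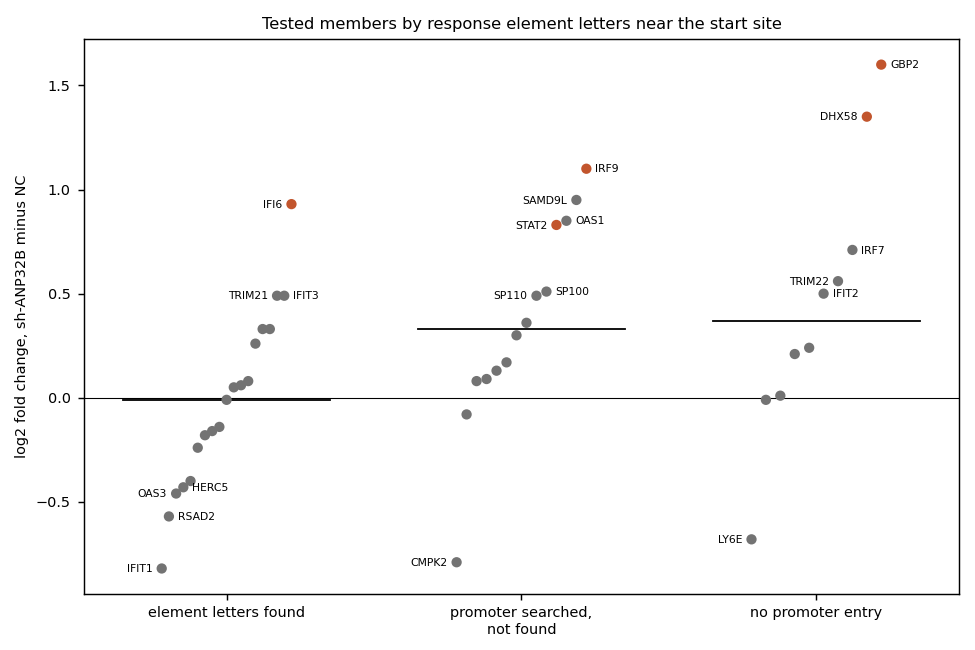
Log2 fold change (sh-ANP32B minus NC, vertical axis) of each of the 43 tested ISGs, split by whether the ISRE letters were found in the promoter window. Points are genes, orange for an adjusted p under 0.05, and horizontal bars are medians (-0.01, 0.33 and 0.37). Most genes with the letters lie at or below 0.49, with IFI6 at 0.93.

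The transcription factors were the role with the most called genes, 2 of 4. STAT2 (chromosome 12 of hg38, 56341597 to 56360203, minus strand), which brings the activation domain to ISGF3, had 77.2 and 71.8 TPM in NC, against 137.4 and 128.1 in sh-ANP32B. Both sh-ANP32B samples lay well above both NC samples, with little spread within either group. The log2 fold change was 0.83 (standard error 0.130, adjusted p 0.0392 by limma). IRF9 (chromosome 14, 24161234 to 24168043, plus strand), the DNA-binding subunit, had 10.7 and 11.7 TPM in NC, against 25.6 and 24.6 in sh-ANP32B. It rose by 1.10 on the log2 scale (standard error 0.169, adjusted p 0.0371 by limma). An unnamed locus, ENSG00000259529, shares 23.9% of the exonic bases of IRF9 on the same strand and can take its reads. That locus had 7.80 and 9.80 TPM in NC, against 10.96 and 14.5 in sh-ANP32B.

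IRF7, which amplifies interferon production, had 10.9 and 11.1 TPM in NC, against 16.1 and 21.5 in sh-ANP32B. Both sh-ANP32B values were above NC but differed from each other, and the log2 fold change of 0.71 (SE 0.203) did not pass the test (adjusted p 0.102 by limma). IRF1, an early factor of the interferon gamma response, ranged from 14.5 to 14.7 TPM in NC and from 15.4 to 17.9 TPM in sh-ANP32B (log2 fold change 0.17, adjusted p 0.614 by limma).

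Among the sensors of viral RNA only DHX58 was called. DHX58 (chromosome 17, 42101404 to 42112714, minus strand), a helicase that regulates its relatives, had 8.34 and 6.72 TPM in NC, against 20.2 and 21.3 in sh-ANP32B. The groups were far apart relative to the replicates, and the log2 fold change was 1.35 (standard error 0.193, adjusted p 0.0348 by limma). RIGI, the sensor of RNA ends, had 5.62 and 5.27 TPM in NC, against 6.86 and 4.93 in sh-ANP32B, with overlapping groups and a 95% interval of the log2 fold change from -0.50 to 0.67. IFIH1, the sensor of long double-stranded RNA, had 20.4 and 21.9 TPM in NC, against 31.9 and 22.5 in sh-ANP32B. The higher mean of IFIH1 rested mainly on sh-ANP32B replicate 1 (log2 fold change 0.33, adjusted p 0.385 by limma). Whether DHX58 changed more than its relatives was not tested.

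GBP2 (chromosome 1, 89106132 to 89150456, minus strand), a guanylate-binding protein of the response to interferon gamma, had the highest fold change of the ISGs. Its level was low in all samples, at 3 and 1.62 TPM in NC, against 10.1 and 7.64 in sh-ANP32B. The log2 fold change was 1.60 with a wide error (standard error 0.301, adjusted p 0.0457 by limma), and with a pseudocount of 0.1 it was 1.95 at an adjusted p of 0.0524. GBP genes are close relatives of each other and can share reads, which makes this value less certain.

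IFI6 (chromosome 1, 27666064 to 27672212, minus strand), a small mitochondrial protein that counters apoptosis, was the most abundant of the called ISGs. It had 127.7 and 121.2 TPM in NC, against 208.9 and 272.4 in sh-ANP32B. Both sh-ANP32B samples were above NC but stood apart from each other, and the log2 fold change was 0.93 (standard error 0.160, adjusted p 0.0431 by limma). After median-of-ratios scaling, which removes the shift of 0.08 of the median gene, IFI6 and GBP2 were just outside the threshold, with log2 fold changes of 0.84 and 1.52 (adjusted p 0.0512 for both by limma), while STAT2, IRF9 and DHX58 were called.

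**Figure D3:**
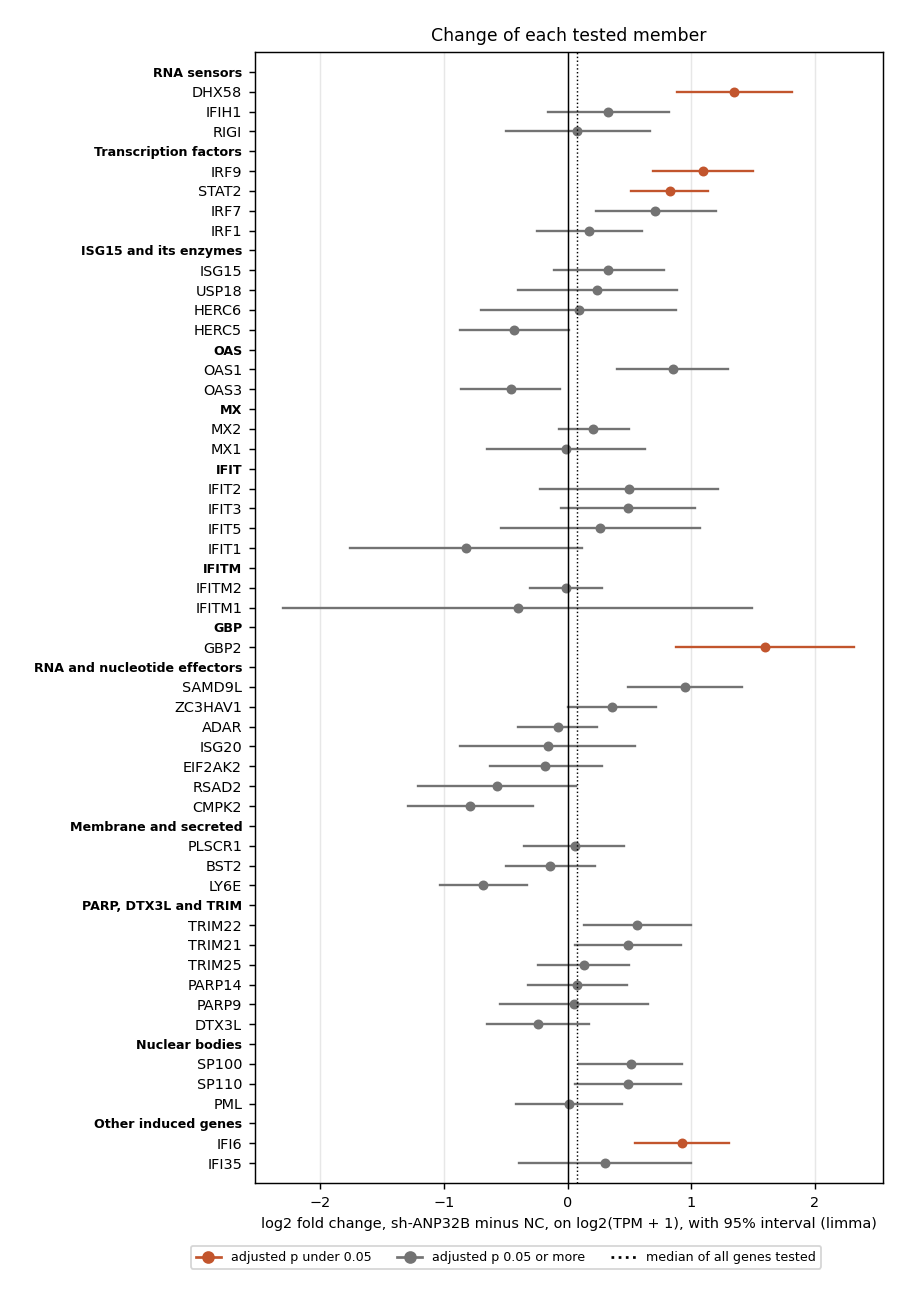
Log2 fold change of each of the 43 tested ISGs (points, sh-ANP32B minus NC, on log2(TPM + 1)) with its 95% interval from limma, grouped by role. Orange marks the 5 genes with an adjusted p under 0.05, and the dotted line is the median of all genes tested, 0.08. The intervals of LY6E, CMPK2 and OAS3 lie below 0, although none of them passed after adjustment.

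Under the criterion of the study, a log2 fold change over 0.5 or under -0.5 at an unadjusted p under 0.05, 10 ISGs were higher and 2 were lower. These are 23.3% and 4.65% of the tested ISGs, where 12.1% and 6.55% of all genes were higher and lower. The study obtained its p-values from a count model, which was not run here. The genes added by this criterion were OAS1, SAMD9L, IRF7, TRIM22 and SP100 on the higher side and LY6E and CMPK2 on the lower side. Both sh-ANP32B values lay above both NC values for 20 ISGs (46.5%, against 33.2% of all genes) and below them for 8 (18.6%, against 21.4%), so the lower side was near its background.

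Of the oligoadenylate synthetases, which switch on an RNA-degrading enzyme when they bind double-stranded RNA, the 2 tested had fold changes on opposite sides of 0. OAS1 had 8.39 and 7.88 TPM in NC, against 16.5 and 14.6 in sh-ANP32B, while the level of OAS3, its neighbour in the genome, was 21.9 and 20.2 TPM in NC and 15 TPM in both sh-ANP32B samples. The replicates of each gene were close and the groups did not overlap for either. The log2 fold changes were 0.85 (lower bound of the 95% interval 0.40, adjusted p 0.0608 by limma) for OAS1 and -0.46 (upper bound -0.06, adjusted p 0.162 by limma) for OAS3. Neither passed the test over all genes, and whether the 2 changes differ was not tested. The ratio of OAS1 to OAS3 was 0.383 and 0.390 in NC and 1.10 and 0.972 in sh-ANP32B. The ratio itself was not tested. OASL, at 0.826 to 1.94 TPM, was too low to be tested.

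The ISG15 system, in which a ubiquitin-like tag is joined to other proteins, was also uneven. ISG15 itself had 30.2 and 25.5 TPM in NC, against 31.1 and 39.9 in sh-ANP32B (log2 fold change 0.33, adjusted p 0.328 by limma). HERC5, the main ligase that attaches ISG15, had 28 and 26.7 TPM in NC, against 22.8 and 17.5 in sh-ANP32B. Both knockdown samples lay below NC, with a log2 fold change of -0.43 (adjusted p 0.218 by limma). That of HERC5 was -0.61 without sh-ANP32B replicate 1 and -0.25 without replicate 2. USP18, the protease that removes ISG15 and restrains the type I receptor, overlapped between the groups at 7.07 to 11.1 TPM in NC and 9.12 to 12.5 TPM in sh-ANP32B, as did HERC6.

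UBA7, the enzyme that activates ISG15, belongs to the other pathway genes and was the only one of the 29 tested that was called. It had 56.1 and 58.5 TPM in NC, against 136.2 and 127.1 in sh-ANP32B. The log2 fold change was 1.18 (standard error 0.130, adjusted p 0.0258 by limma), and it passed in 11 of 12 alternative fits. UBE2L6, the enzyme that receives ISG15 from UBA7, had 73.8 and 73.7 TPM in NC, against 63.2 and 60.2 in sh-ANP32B. Its log2 fold change was -0.25 (95% interval -0.57 to 0.06, adjusted p 0.294 by limma). The ratio of UBA7 to UBE2L6 was 0.761 and 0.794 in NC and 2.16 and 2.11 in sh-ANP32B.

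**Figure D4:**
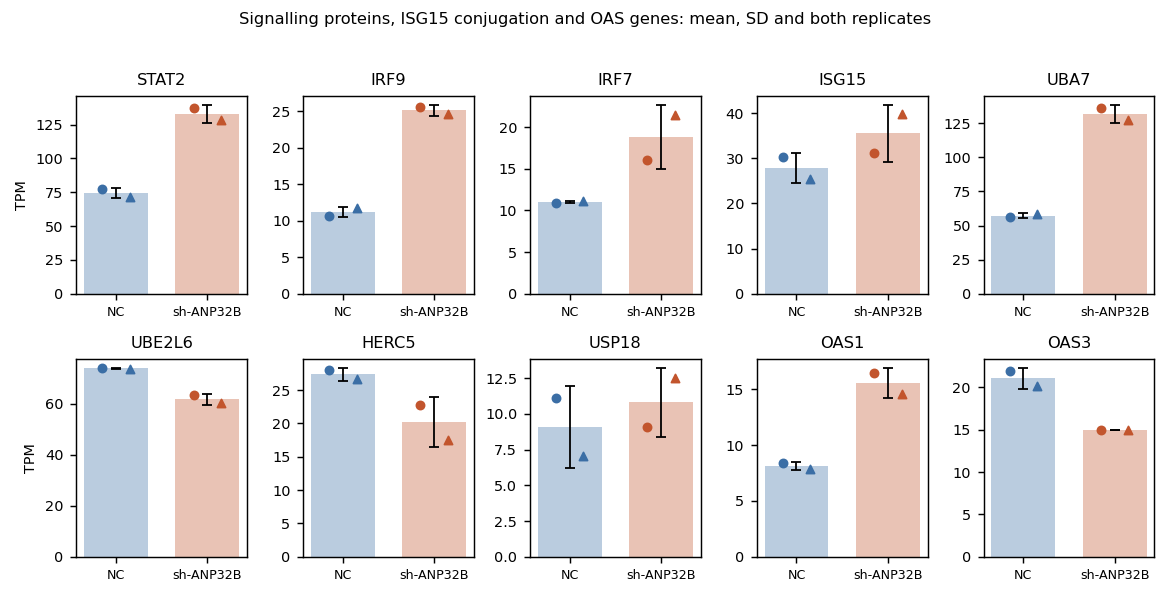
TPM of STAT2, IRF9, IRF7, the ISG15 pathway and 2 OAS genes in NC (blue) and sh-ANP32B (orange). Bars are means of 2 samples, error bars are SD, and circles and triangles are replicates 1 and 2. STAT2, IRF9, IRF7, UBA7 and OAS1 stand higher in sh-ANP32B, OAS3, HERC5 and UBE2L6 lower, and USP18 overlaps.

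The IFIT proteins, which bind foreign RNA and block its translation, were all scarce. IFIT1 had 2.68 and 3.32 TPM in NC, against 0.605 and 2.17 in sh-ANP32B, and its log2 fold change of -0.82, the lowest of the ISGs, had an interval from -1.76 to 0.12 (adjusted p 0.265 by limma). It was -0.33 without sh-ANP32B replicate 1 and -1.31 without replicate 2. IFIT3 had 5.03 and 4.95 TPM in NC, against 8.29 and 6.60 in sh-ANP32B, a log2 fold change of 0.49 (adjusted p 0.25 by limma). IFIT2 had 1.29 and 1.03 TPM in NC, against 2.11 and 1.99 in sh-ANP32B. IFIT5 had 0.609 and 0.989 TPM in NC, against 1.11 and 1.18 in sh-ANP32B, and was tested only because the latter reached 1 TPM.

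Of the IFITM proteins, which hinder the fusion of viruses with membranes, IFITM2 was the most abundant ISG on average. It had 242.6 and 222.4 TPM in NC, against 231.7 and 229.4 in sh-ANP32B, and the interval of its log2 fold change ran from -0.30 to 0.28. IFITM1 had 5.31 TPM in NC replicate 1, was listed at 0 in NC replicate 2 and had 1.04 and 0.771 TPM in sh-ANP32B. The IFITM genes are nearly identical and can share reads, so that both values are uncertain. Of the MX GTPases, which trap viral particles, MX2 had 168.7 and 167.7 TPM in NC, against 191.8 and 198.8 in sh-ANP32B (log2 fold change 0.21, adjusted p 0.331 by limma). MX1, which is strongly induced by type I interferon in most cells, stayed between 4.36 and 6.34 TPM with overlapping groups, and its 95% interval ran from -0.65 to 0.63.

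Among the effectors that act on RNA and nucleotides, SAMD9L and CMPK2 lay at opposite ends. SAMD9L, a restraint on growth and translation that is mutated in inherited myeloid disease, had 7.03 and 6.92 TPM in NC, against 15.5 and 13.5 in sh-ANP32B. The groups were well separated, and the log2 fold change of 0.95 (SE 0.194) narrowly missed the threshold (adjusted p 0.0541 by limma). CMPK2, a mitochondrial nucleotide kinase, had 9.98 and 9.48 TPM in NC, against 4.82 and 5.65 in sh-ANP32B, a log2 fold change of -0.79 (standard error 0.211, adjusted p 0.0905 by limma). RSAD2, the gene next to CMPK2 that encodes viperin, an enzyme making an antiviral nucleotide, had 5.47 and 4.57 TPM in NC, against 3.64 and 2.52 in sh-ANP32B (log2 fold change -0.57, adjusted p 0.256 by limma). RSAD2 and CMPK2 overlap on opposite strands over 6.20% and 8.0% of their exonic bases, and whether strand was used in counting is not stated.

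The remaining effectors of this group did not pass the test. ADAR, which edits double-stranded RNA, had 196.5 and 183.4 TPM in NC, against 192.1 and 167.9 in sh-ANP32B. EIF2AK2, the kinase PKR that halts translation, had 15.9 and 15.5 TPM in NC, against 15.4 and 12.2 in sh-ANP32B. Their 95% intervals ran from -0.40 to 0.24 and from -0.63 to 0.28 on the log2 scale. ZC3HAV1, which targets CpG-rich viral RNA, had a log2 fold change of 0.36 (adjusted p 0.207 by limma), and the nuclease ISG20, at 2.34 and 2.99 TPM in NC and at 1.84 and 2.76 in the knockdown, one of -0.16 (adjusted p 0.796 by limma).

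Of the membrane and secreted proteins, LY6E, a surface protein that hinders entry of some viruses, had 112.4 and 98.1 TPM in NC, against 61.1 and 69.7 in sh-ANP32B. Both knockdown samples were below both NC samples, and the log2 fold change of -0.68 (SE 0.147) had a limma adjusted p of 0.0589. It was called as lower in 5 of 12 alternative fits. BST2, the tether of budding viruses, had 172.9 and 158 TPM in NC, against 134.6 and 166.6 in sh-ANP32B, and PLSCR1, a lipid scramblase, ranged from 22.6 to 26.9 TPM, both with overlapping groups.

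None of the ubiquitin ligases, PARP proteins and nuclear body proteins passed limma with an adjusted p under 0.05. TRIM22 had 43.4 and 39.2 TPM in NC, against 71.4 and 52.8 in sh-ANP32B (log2 fold change 0.56, adjusted p 0.13 by limma), and SP100, a scaffold of nuclear bodies, had 64.2 and 65.0 TPM in NC, against 107.8 and 79.5 in sh-ANP32B (0.51, adjusted p 0.145 by limma). In both genes the increase was larger in sh-ANP32B replicate 1. TRIM21, an antibody receptor in the cytosol, and SP110 had log2 fold changes of 0.49 each. PML, the organiser of the same bodies, had 27.4 and 29.9 TPM in NC, against 25.4 and 32.6 in sh-ANP32B with overlapping groups, as had TRIM25, PARP9 and PARP14. DTX3L, the ligase partner of PARP9, had 24.3 and 24.9 TPM in NC, against 22.8 and 18.7 in sh-ANP32B, with -0.24 on the log2 scale (adjusted p 0.449 by limma), and IFI35 had 0.30 (adjusted p 0.578 by limma).

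The upstream part of the pathway was examined with a list of 45 ligands, receptors, kinases, sensors and regulators, of which 31 had a matched row and 29 were tested. UBA7 was higher and 0 were lower by limma (3.45% against 3.32% of all genes in either direction), and 7 genes were higher by the criterion of the study (24.1%, against 12.1% of all genes). None of the 10 interferon genes listed had a matched row, and they were not analysed here. Of the chains of the type I receptor, IFNAR1 had 41.1 and 41.4 TPM in NC, against 56.8 and 46.1 in sh-ANP32B (log2 fold change 0.31, adjusted p 0.299 by limma), and IFNAR2 had 54.3 and 56.5 TPM in NC, against 66.7 and 56.3 in sh-ANP32B (0.14, adjusted p 0.613 by limma). Only the groups of IFNAR2 overlapped in this pair. IFNGR1, which binds interferon gamma, had 50.3 and 46.0 TPM in NC, against 93.8 and 65.7 in sh-ANP32B (0.70, adjusted p 0.0987 by limma), whereas its partner IFNGR2 had 71.1 and 70.2 TPM in NC, against 83.7 and 75.5 in sh-ANP32B (0.17, adjusted p 0.499 by limma). IL10RB, a chain of the interferon lambda receptor, had 135.5 and 143.9 TPM in NC, against 185.6 and 160.4 in sh-ANP32B (0.30, adjusted p 0.232 by limma), and IFNLR1 was not analysed here.

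Of the receptor kinases, TYK2 had 131.7 and 123.1 TPM in NC, against 164 and 294.3 in sh-ANP32B. The 2 sh-ANP32B samples differed from each other more than replicate 1 differed from NC, and the log2 fold change of 0.78 (SE 0.260) did not pass (adjusted p 0.137 by limma). JAK2 had 6.02 and 7.52 TPM in NC, against 14.6 and 8.70 in sh-ANP32B (0.67, adjusted p 0.21 by limma). JAK1 had 91.1 and 91.9 TPM in NC, against 119.9 and 101.8 in sh-ANP32B, and its log2 fold change was 0.27 (95% interval -0.06 to 0.60, adjusted p 0.295 by limma).

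Other measurements also differed between the groups or between replicates. Of 10 markers of myeloid maturation 8 had a matched row, CD14 and FCN1 being not analysed, and their summed level was 773.7 and 828.2 TPM in NC, against 1571 and 1619 in sh-ANP32B, most of it LYZ. ITGAX and LYZ passed the test, with log2 fold changes of 1.89 and 0.97 (adjusted p 0.0154 and 0.0281 by limma), where 2.14% of all genes were higher. Of the 8, only the groups of CSF1R overlapped (log2 fold change 0.19). In the other markers with a row both sh-ANP32B values lay above both NC values, as in 33.2% of all genes. Across genes, the log2 difference between the 2 sh-ANP32B samples correlated with GC content (Spearman rho 0.577 across 15427 genes, which are not independent, against -0.206 between the NC replicates). The share of mitochondrial transcripts was 12.9% and 13.1% in NC, against 11.4% and 8.43% in sh-ANP32B. The part of these in the ISG differences was not tested, and the log2 fold changes of the called ISGs lay from 0.84 to 1.68 after GC correction and from 0.78 to 1.60 after removal of mitochondrial genes. Of the markers of other cells, those of plasmacytoid dendritic cells, erythroid cells and fibroblasts had 0 matched rows of 3 each. CD2 (1 of 3 T cell markers with a row) had 1.65 and 1.57 TPM in NC, against 9.48 and 9.25 in sh-ANP32B. In bulk RNA, more cells of one state and more RNA per cell cannot be told apart.

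**Figure D5:**
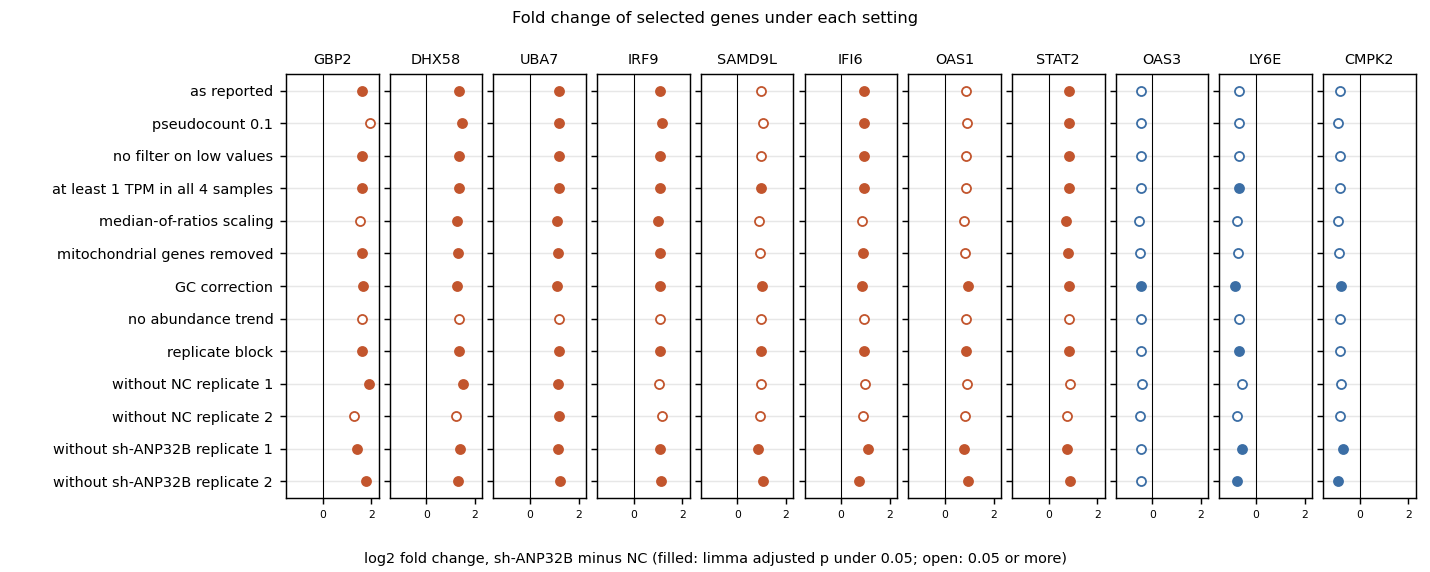
Log2 fold change (horizontal axes, sh-ANP32B minus NC) of 11 genes as reported and under each of 12 alternative settings (rows). Filled marks have a limma adjusted p under 0.05 and open marks do not. Every mark keeps its side of 0. No mark is filled without the abundance trend, and most are open without NC replicate 1 and without NC replicate 2.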

How the data were processed

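RNA was sequenced from 2 NC and 2 sh-ANP32B samples. The submitters' processing notes name hg38 and the aligner HISAT2 2.0.5, and the values deposited by the authors are TPM per gene, with columns that sum to between 997812 and 998314. The program that made the TPM values, its annotation and any filter are not given in the sources used here, and the smallest row mean is 0.500 TPM. Depth is unknown, so no counting interval or floor was computed. Symbols, positions and GC content came from GENCODE v44 (hg38), in which 16986 of 18567 gene IDs were found, and promoters from RefSeq.

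Genes reaching 1 TPM in 2 or more samples were compared on log2(TPM + 1), which understates the change of low genes, by limma 3.58.1 (R 4.3.3) with an abundance trend. Two-sided p-values received Benjamini-Hochberg adjustment over all 16817 genes, and 95% intervals are those of limma. The fit was tested on simulated data. Other scripts ran in Python 3.11.15. No values above 0 were identical between replicates.

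The listed genes, roles and tests were chosen with earlier results of these data known. Per-sample values are given for ISGs past the threshold, the 10 highest and 10 lowest fold changes, the 5 highest mean levels and those that passed through 1 group, for ANP32B, and for the pathway receptors, the kinases and any called pathway gene. Other ISGs are named to account for the list. Alternatives were a pseudocount of 0.1, no filter, 1 TPM in all 4 samples, median-of-ratios scaling, removal of mitochondrial genes, GC correction by loess (span 0.3), no abundance trend, a replicate block and leaving out each sample. Some listed pathway and marker genes are not reported here.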

Additional observations from a re-analysis of the deposited data

How the results depend on the processing

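Of the ISGs, 5 were called higher in the reported fit, 3 with median-of-ratios scaling, 12 with GC correction and 0 without the abundance trend, and between 0 and 13 when 1 sample was left out. Of all genes, 2.14% were called higher as reported, 1.37% with median-of-ratios scaling, 11.4% with GC correction and 0% without the abundance trend. The number of lower ISGs, 0 as reported, was 1 with at least 1 TPM in all 4 samples, 3 when corrected for GC and 1 with the replicate block. In the same order, 1.18%, 2.06%, 6.64% and 2.92% of all genes were called lower. Without either sh-ANP32B replicate some ISGs were called lower as well, as were more genes of the whole table. The criterion of the study gave 2 lower ISGs as reported, where 6.55% of all genes were lower. It gave 5 after median-of-ratios scaling, for which the share of all genes was not computed. The median log2 fold change of the ISGs, 0.17 in the reported fit, became 0.08 under median-of-ratios scaling, where that of all genes was 0.00. Called pathway genes, 1 as reported, numbered 9 after GC correction, 0 without the trend, 3 with the replicate block and 1 to 10 with 1 sample left out. Called genes over the whole table, 559 as reported (360 higher, 199 lower), numbered 2778 after GC correction, 0 without the trend (3701 at an unadjusted p under 0.05), 1473 with the replicate block and 273 to 4079 with 1 sample left out, and after median-of-ratios scaling 230 were higher and 288 lower. ANP32B had an adjusted p of 0.0929 without the trend at the same log2 fold change of -3.04. The cause of these shifts was not tested. A fit without 1 sample assumes that the lone sample of its group varies like the other group.

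With 1 sample left out, 3 ISGs turned above 0 and 3 below without NC replicate 1, 0 and 3 (HERC6, IFI35 and USP18) without NC replicate 2, 2 and 6 (HERC6, PARP14, PARP9, PLSCR1, RIGI and TRIM25) without sh-ANP32B replicate 1, and 2 and 1 without sh-ANP32B replicate 2. Median-of-ratios scaling turned PARP14, PARP9, PLSCR1 and PML below 0. The log2 values with 1 sample left out lay from -0.18 to 0.02 for ADAR (above 0 without sh-ANP32B replicate 2), from -0.29 to 0.01 for BST2 and from -0.36 to 0.04 for ISG20 (above 0 without sh-ANP32B replicate 1), and from -0.07 to 0.05 for IFITM2 and from -1.73 to 0.93 for IFITM1 (above 0 without NC replicate 1). With a pseudocount of 0.1 that of IFITM1 was 0.44. Over the 12 alternatives STAT2 had log2 fold changes from 0.73 to 0.88, IRF9 from 1.01 to 1.16, DHX58 from 1.22 to 1.49, IFI6 from 0.74 to 1.12 and GBP2 from 1.29 to 1.95, and they were called in 9, 9, 10, 8 and 8 of these. The replicate numbers come from the titles. The correlation across genes between the deviations of samples with 1 number was -0.0925 (Pearson r; Spearman rho -0.168). It cannot decide whether such samples were paired. The difference between the sh-ANP32B replicates that follows GC content (rho 0.577, against -0.206 in NC) also enters it. The count models edgeR and DESeq2 were not run, since the table holds no counts.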

Other observations

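Among the genes that sense nucleic acids or carry the signal onward, 11 of 15 were tested and 0 passed limma with an adjusted p under 0.05, against 2 with an unadjusted p under 0.05 and a log2 fold change over 0.5, a criterion that 12.1% of all genes met. These were IFI16, a nuclear DNA sensor, with 33.1 and 39.1 TPM in NC, against 61.7 and 47.2 in sh-ANP32B (log2 fold change 0.57, adjusted p 0.129 by limma), and the adaptor TRAF3, with 28.6 and 26.8 TPM in NC, against 48.0 and 35.6 in sh-ANP32B (0.56, adjusted p 0.136 by limma). They were chosen after their values were seen. The DNA-sensing pair CGAS and STING1 had log2 fold changes of 0.25 and 0.11, and the adaptor MAVS, through which RIGI and IFIH1 signal, one of 0.09. IRF8, a factor of the monocyte and dendritic lineages, was the most abundant pathway gene at 211.8 to 239.2 TPM, with a 95% interval of the log2 fold change from -0.27 to 0.33. IRF3, which shares 19.3% of its exonic bases with BCL2L12 on the opposite strand, had 63.5 and 57.5 TPM in NC, against 74.2 and 105.8 in sh-ANP32B (0.55, adjusted p 0.155 by limma).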
